A study of Mus musculus with 7 samples.

Results

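Runx3 occupancy and the enhancer mark H3K4me1 were examined around 8 genes of the NF-κB pathway in resting mouse splenic CD8-TC: Tnfaip3, the NF-κB subunit genes Nfkb1, Nfkb2, Rel, Rela and Relb, and the IκB-family genes Nfkbia and Nfkbiz. A region was assigned to a gene when its midpoint fell in the gene body or within 200 kb of it for Tnfaip3, and within 20 kb for the other 7 genes. The wider window was given to Tnfaip3 because a very wide Runx3-bound region was already known to lie about 170 kb away from it, so the Tnfaip3 count is not comparable with the others. The rule took 134 of the 81639 regions in both lists, namely 11 of 4934 Runx3-bound and 123 of 76705 H3K4me1-marked regions. Positions and presence near these genes, and the width of that very wide region, were therefore used to choose the regions and are given as description, without a test.

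The cells came from the spleens of ICR mice of wild-type genotype and without treatment. For each library 18 pooled mice are given, and the paper describes 2 biological repeats. The cells were purified on anti-CD8 beads to over 95%. Of the 7 ChIP-seq libraries, 3 were made with the anti-Runx3 serum (2 repeats), 2 with the antibody to H3K4me1, and 2 with non-immune rabbit serum (NIS), the control against which both lists were called. An age is not given in the sources used here. Each antibody has 1 list of positions called on joined repeats, with no height, score or read count, so no value below has a replicate error. Intervals are 95% Wilson intervals and cover counting error over regions only.

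NF-κB factors are dimers held in the cytoplasm of resting T cells by inhibitors of the IκB family. Signals from the T cell receptor or from TNF-family receptors activate a kinase that marks the inhibitor for destruction, and the dimer then enters the nucleus and binds κB sites. Among the genes it switches on are Tnfaip3, which encodes the ubiquitin-editing enzyme A20, and Nfkbia, which encodes IκBα, and both products feed back to limit the signal. Runx3 is a RUNX-family factor that shapes the CD8 lineage, and H3K4me1 is a histone mark found at enhancers and at the shoulders of active promoters.

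The sequences that follow are shown because the account of the motifs rests on them. They were read from the NCBIM37 genome (mm9), 5′ to 3′. The 4 upstream Tnfaip3 regions each held the RUNX motif variant TGTGGT. Its share over the whole Runx3 list was not computed, and the paper reports it as the most enriched variant in remote Runx3-bound regions. The TGTGGT copy nearest the midpoint is shown in capitals with 30 bases on either side.
Tnfaip3 region 1, chr10:18904945-18905010, forward strand: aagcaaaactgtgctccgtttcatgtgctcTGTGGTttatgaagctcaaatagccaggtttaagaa
Tnfaip3 region 2, chr10:18891715-18891780, forward strand: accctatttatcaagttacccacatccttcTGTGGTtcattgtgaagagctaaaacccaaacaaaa
Tnfaip3 region 3, chr10:18824561-18824626, reverse strand: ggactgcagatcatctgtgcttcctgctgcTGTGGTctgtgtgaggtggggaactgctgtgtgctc
Tnfaip3 region 4, chr10:18782416-18782481, reverse strand: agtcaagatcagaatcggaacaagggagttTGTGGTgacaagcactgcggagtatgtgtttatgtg

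The central 200 bp of the region with the most RUNX motifs in that window are shown next for Nfkb1, Nfkb2, Rel and Nfkbiz, with RUNX motifs on either strand in capitals. The Rel window and that of Tnfaip3 region 5, added as the only region without H3K4me1, held no RUNX motif and have no capitals.
Nfkb1 region 2, centre, chr3:135325549-135325748, forward strand: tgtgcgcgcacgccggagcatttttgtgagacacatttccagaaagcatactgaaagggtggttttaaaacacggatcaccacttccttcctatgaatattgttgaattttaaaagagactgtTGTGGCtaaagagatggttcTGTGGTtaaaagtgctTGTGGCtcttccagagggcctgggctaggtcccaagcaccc
Nfkb2 region 1, centre, chr19:46378679-46378878, forward strand: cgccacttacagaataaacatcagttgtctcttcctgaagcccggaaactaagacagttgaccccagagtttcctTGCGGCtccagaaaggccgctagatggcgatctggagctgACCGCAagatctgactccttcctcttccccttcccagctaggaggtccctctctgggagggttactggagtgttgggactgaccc
Rel region 1, centre, chr11:23669708-23669907, forward strand: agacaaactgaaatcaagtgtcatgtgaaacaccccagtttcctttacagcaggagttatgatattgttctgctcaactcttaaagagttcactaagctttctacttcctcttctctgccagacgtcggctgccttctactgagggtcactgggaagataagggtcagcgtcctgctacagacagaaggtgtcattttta
Nfkbiz region 1, centre, chr16:55820930-55821129, forward strand: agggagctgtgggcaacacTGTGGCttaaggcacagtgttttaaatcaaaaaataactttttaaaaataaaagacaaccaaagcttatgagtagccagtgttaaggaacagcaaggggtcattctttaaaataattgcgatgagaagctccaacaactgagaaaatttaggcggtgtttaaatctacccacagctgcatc
Tnfaip3 region 5, centre, chr10:18714013-18714212, forward strand: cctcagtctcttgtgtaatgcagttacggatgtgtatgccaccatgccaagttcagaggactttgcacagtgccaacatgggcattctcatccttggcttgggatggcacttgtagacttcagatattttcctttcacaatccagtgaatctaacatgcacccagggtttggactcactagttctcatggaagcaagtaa

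Of the 11 Runx3-bound regions, 3 held matches to the κB motif, the sequence that NF-κB itself binds. Those stretches are shown with κB matches in capitals, and with the nearest RUNX motif in capitals in the Tnfaip3 and Nfkbiz stretches. Overlapping κB matches were joined, which left 4 distinct stretches.
Tnfaip3 region 1, κB and RUNX, chr10:18906107-18906203, forward strand: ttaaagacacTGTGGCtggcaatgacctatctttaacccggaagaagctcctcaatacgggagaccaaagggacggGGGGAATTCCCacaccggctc
Nfkbiz region 1, κB and RUNX, chr16:55820800-55820843, forward strand: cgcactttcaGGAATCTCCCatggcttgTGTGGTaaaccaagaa
Nfkb2 region 1, κB, chr19:46379178-46379225, forward strand: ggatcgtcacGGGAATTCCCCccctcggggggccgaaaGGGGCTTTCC

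Within 20 kb, 5 of the 8 genes had at least 1 Runx3-bound region (Tnfaip3, Nfkb1, Nfkb2, Rel and Nfkbiz) and 3 had none (Rela, Relb and Nfkbia). Among all 22350 protein-coding genes 19.8% had one within the same distance, and since the rule selected on these regions nothing is read from the difference. Nfkb1 was the only one of the 8 with at least 2 regions at this distance, against 4.67% of all genes. It was also by far the longest of the 8 genes, at 106893 bp, with Rel next at 29457 bp. Counts were not scaled by the length of the window. H3K4me1-marked regions were present at all 8 genes, and 73.6% of all genes had one.

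Tnfaip3 (ENSMUSG00000019850.5, chr10:18720716-18735463, minus strand) had 5 Runx3-bound regions in its window of 200 kb on either side. A count of at least 5 within 200 kb was found at 5.85% of protein-coding genes, at least 2 at 35.2% and at least 1 at 60.5%. With 200 kb used for every gene, Nfkb1 had 7, Rela and Nfkbiz 5 each, Rel, Relb and Nfkbia 2 each and Nfkb2 1, so that Tnfaip3 did not stand apart from them by its count. All 5 regions were intergenic, and in each case the nearest protein-coding TSS was that of Tnfaip3. The first 4 lay upstream and the fifth downstream of the gene. Region 1, at 169898 bp from the Tnfaip3 TSS, lay close to where the nearest TSS changes to that of Olig3. The next H3K4me1-marked region outward (chr10:18908364-18909819) was already nearest to Olig3, at 167274 bp. Nearness to a TSS therefore barely separates Tnfaip3 from Olig3 for region 1.

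Region 1 (chr10:18904354-18906367) lay 169898 bp upstream of the Tnfaip3 TSS and spanned 2014 bp. It ranked 7 by width among the 4934 Runx3-bound regions, at percentile 99.9, and this width was what set the window. It was wholly contained in an H3K4me1-marked region of 3359 bp (chr10:18903943-18907301). Its 3 RUNX motifs and 5 ETS motifs all lay outside the central 200 bp. An 11-bp κB stretch lay 828 bp from the midpoint and 60 bp from the nearest RUNX motif.

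Region 2 (chr10:18891234-18892288) was 1055 bp wide and lay 156298 bp upstream, so that its midpoint was 13599.5 bp from that of region 1. H3K4me1 covered 90.9% of it, in a marked region of 2547 bp. Region 3 (chr10:18824226-18825139) was 914 bp wide, lay 89220 bp upstream and was fully covered by a marked region of 1853 bp. Region 4 (chr10:18781924-18782933) was 1010 bp wide and lay 46966 bp upstream. It was fully covered by a marked region of 5606 bp that formed, with a neighbour less than 1 kb away, a domain of 8449 bp (chr10:18780593-18789041), the longest in the Tnfaip3 window. Each of regions 2, 3 and 4 held 1 RUNX motif in its central 200 bp, in each case TGTGGT, and 2 in the whole region.

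Region 5 (chr10:18713721-18714504) differed from the other 4 in several features. It was 784 bp wide, lay 6604 bp past the 3′ end of the gene and shared no base with H3K4me1, the nearest marked region being 2291 bp away. It held no RUNX motif over its whole length and 2 ETS motifs, 1 of them in the central 200 bp. It was also the only Runx3-bound region within 20 kb of Tnfaip3, so the upstream group was counted only through the wider window.

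**Figure D1:**
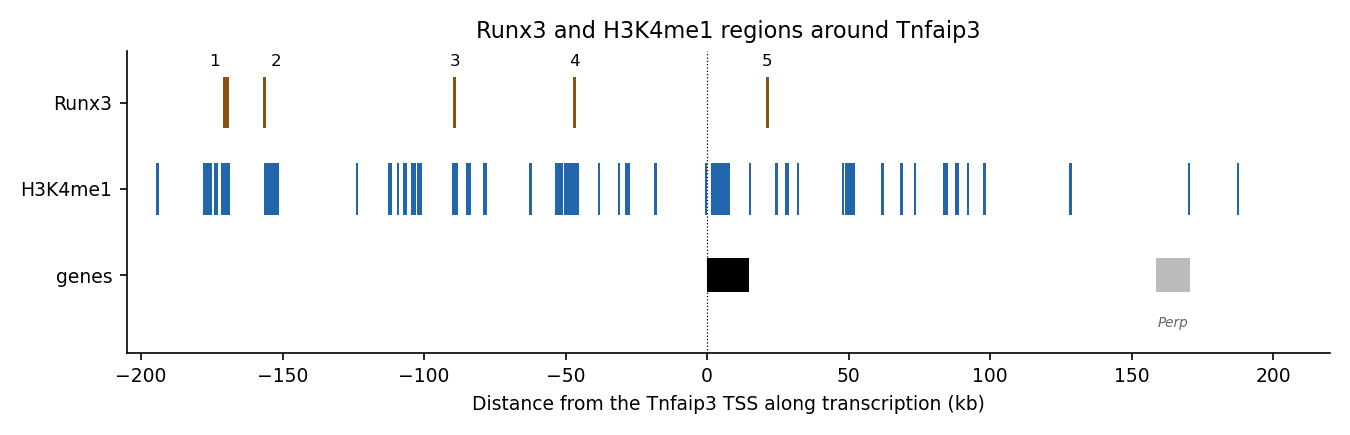
Positions of Runx3-bound regions (brown, numbered 1 to 5) and H3K4me1-marked regions (blue) around Tnfaip3, with distance from the TSS along the direction of transcription in kb on the x axis, Tnfaip3 in black and the neighbour Perp in grey. The 4 upstream Runx3-bound regions coincide with marked regions, region 5 does not, and no Runx3-bound region lies in the gene.

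The Tnfaip3 window held 44 H3K4me1-marked regions (88.1% of protein-coding genes had at least 1 within 200 kb), 25 upstream of the gene, 2 in its body and 17 downstream. Together they covered 65.0 kb or 15.7% of the window. By nearest protein-coding TSS Tnfaip3 had 34 of the marked regions. The others lay nearer to Olig3 or Perp, 1 of them 300 bp from the Perp TSS. The farthest 50 kb of the upstream side held 7 marked regions over 14.1 kb and 2 Runx3-bound regions. The next 50 kb held 6 marked regions over 7.86 kb and no Runx3-bound region. From 100 to 50 kb before the TSS 5 marked regions covered 9.06 kb, and from 50 to 20 kb another 5 covered 8.32 kb, with 1 Runx3-bound region in each stretch. The 17 downstream regions covered 17.3 kb. The widest marked region, of 6081 bp (chr10:18727897-18733977), lay in the gene body itself, where no Runx3-bound region was called.

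Nfkb1 (ENSMUSG00000028163.8, chr3:135247619-135354511, minus strand) encodes p105, which is processed to the DNA-binding subunit p50. It had 3 Runx3-bound regions and 30 H3K4me1-marked regions, 25 of the latter in the gene body. Region 1 (chr3:135328448-135329303, 856 bp) lay in intron 3 of the 24 introns of its first transcript, 25636 bp downstream of the TSS. Region 2 (chr3:135325035-135326262, 1228 bp) lay in intron 4, 28862 bp downstream of the TSS and 3227 bp from region 1. H3K4me1 covered 100% of region 1 and 84.6% of region 2.

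Region 1 held 6 RUNX motifs, the most of the 11 regions, of which 1 lay in the central 200 bp. Region 2 held 5, of which 3 lay in the central 200 bp, 2 of them TGTGGC and the one between them TGTGGT, as shown above. Region 2 was also the only 1 of the 11 with an AP-1 motif, which lay outside its central 200 bp. The list-wide share with an AP-1 motif was 16.5% for the region and 4.58% for the central 200 bp.

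Region 3 of Nfkb1 (chr3:135228205-135228888, 684 bp) lay 19072 bp past the 3′ end of the gene. Its midpoint fell in intron 14 of 16 of the neighbouring gene Manba, which encodes a lysosomal mannosidase, and the Manba TSS, at 79972 bp, was nearer than that of Nfkb1, at 125964 bp. It was the only 1 of the 11 Runx3-bound regions whose nearest protein-coding TSS was not that of the gene it was assigned to. It was fully covered by a marked region of 1851 bp.

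H3K4me1 was dense in the first part of Nfkb1. With neighbours within 1 kb joined, a domain of 20165 bp (chr3:135333441-135353605) began 906 bp inside the TSS, and it was the longest at any of the 8 genes. No Runx3-bound region lay in that domain. The 2 intronic Runx3-bound regions lay beyond its far end, in marked regions of 3104 bp and 1313 bp.

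Nfkb2 (ENSMUSG00000025225.7, chr19:46379227-46386580, plus strand) encodes p100, the precursor of p52 in the alternative NF-κB pathway. Its single Runx3-bound region (chr19:46378284-46379273, 990 bp) had its midpoint 448 bp before the TSS and reached across it, and it was the only one of the 11 at a TSS. The next Runx3-bound region was 247828 bp away. H3K4me1 covered 570 bp or 57.6% of the region, on the side away from the gene. The central 200 bp held 2 RUNX motifs, TGCGGC and TGCGGT, and 4 ETS motifs, with a GC content of 55%, the highest of the 11. In the central 200 bp of the other regions the RUNX motifs read TGTGGT or TGTGGC. The paper reports such a split over its Runx3-bound regions, with TGCGGT and TGCGGC favoured at promoters and TGTGGT and TGTGGC at enhancers. Shares of single variants over the list were not computed here. The κB stretches GGGAATTCCCC (chr19:46379188-46379198) and GGGGCTTTCC (chr19:46379216-46379225) ended 29 bp and 2 bp before the TSS.

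Rel (ENSMUSG00000020275.8, chr11:23641514-23670970, minus strand) encodes c-Rel, a subunit largely restricted to lymphoid and myeloid cells. Its Runx3-bound region (chr11:23669494-23670120) was the narrowest of the 11 at 627 bp, percentile 10.9 of the list. It lay in intron 1 of 9, 1163 bp downstream of the TSS, and straddled the edge of the marked region that begins there. H3K4me1 covered 238 bp or 38.0% of it, and its midpoint lay outside the mark. The region held 1 RUNX motif, just outside the central 200 bp, and 2 ETS motifs inside. The marked region it touched, of 3461 bp, was part of a domain of 9164 bp (chr11:23660568-23669731).

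Rela and Relb had no Runx3-bound region in their windows. Rela (ENSMUSG00000024927.6, chr19:5637483-5648130, plus strand) encodes p65, the main activating subunit of the classical pathway. Its nearest Runx3-bound region was 65.3 kb away. It had 6 H3K4me1-marked regions, of which 1 lay upstream, 1 in the body and 4 downstream. The widest, of 3427 bp, lay 23909 bp from the TSS within the neighbouring gene Sipa1. Relb (ENSMUSG00000002983.9, chr7:20191566-20214787, minus strand) encodes the partner of p52. Its nearest Runx3-bound region was 35.8 kb away, upstream. It had 7 marked regions, and 9.26% of its body was covered, the lowest share of the 8.

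Nfkbia (ENSMUSG00000021025.7, chr12:56590398-56593634, minus strand) had no Runx3-bound region either, and the nearest was 99.5 kb away. Its 5 marked regions included 1 of 4905 bp (chr12:56587624-56592528) that ran from within the gene past its 3′ end. H3K4me1 covered 65.8% of the gene body, the highest share of the 8. No other protein-coding gene lay in its window.

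Nfkbiz (ENSMUSG00000035356.9, chr16:55811488-55839012, minus strand) encodes the nuclear protein IκBζ, an atypical IκB that acts on p50-bound genes. Its Runx3-bound region (chr16:55820401-55821658, 1258 bp) lay in intron 3 of 13, 17982 bp downstream of the TSS. At percentile 96.0 it was the second widest of the 11. It lay between 2 marked regions, chr16:55818653-55820698 and chr16:55822580-55823297, and shared 298 bp or 23.7% of its length with the first. The central 200 bp had a GC content of 38.5%, the lowest of the 11, and held 1 RUNX motif, TGTGGC. The κB stretch GGAATCTCCC (chr16:55820810-55820819) lay 8 bp from a TGTGGT motif, the shortest such distance among these regions.

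**Figure D2:**
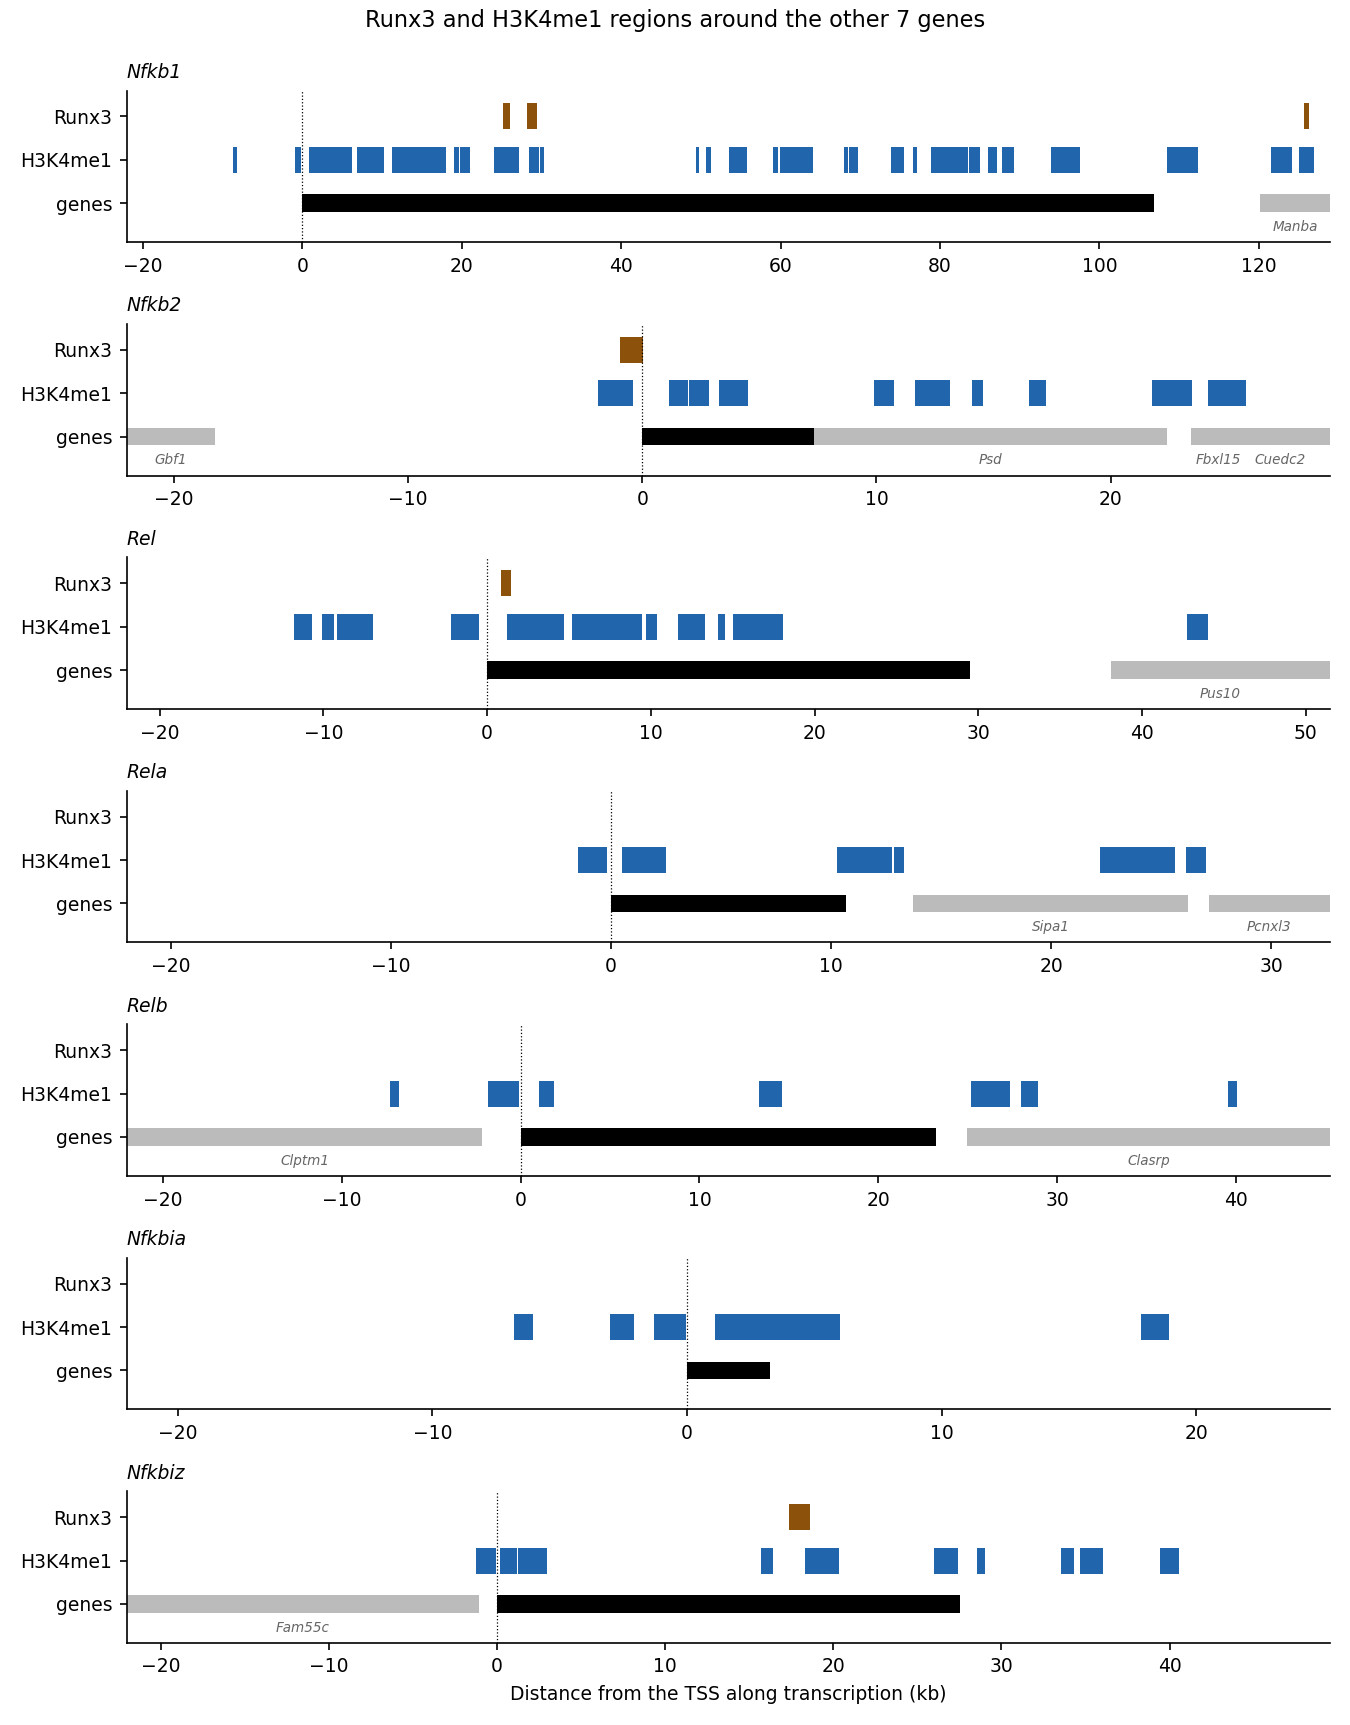
Runx3-bound (brown) and H3K4me1-marked (blue) regions at the other 7 genes, each drawn from its own TSS along transcription (x axis, kb; scales differ between panels), with the gene in black and neighbours in grey. The Runx3-bound regions lie in introns and beyond the 3′ end at Nfkb1, at the TSS at Nfkb2 and in introns at Rel and Nfkbiz, and Rela, Relb and Nfkbia have none.

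The H3K4me1 pattern around the TSS had the same form at all 8 genes. The TSS itself was uncovered, and a marked region ended upstream and another began downstream within 2 kb. Over all protein-coding genes 29.3% had this form, and 51.0% of the 12848 that had H3K4me1 at or within 2 kb of the TSS. A further 17.7% of all genes had a covered TSS and 10.5% were flanked on 1 side. The pattern was singled out after its values were seen and was not tested.

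The uncovered stretch measured 1574 bp at Tnfaip3, 1003 bp at Nfkb1, 1517 bp at Nfkb2 and 1709 bp at Rel. It measured 662 bp at Rela, 1116 bp at Relb, 1151 bp at Nfkbia and 242 bp at Nfkbiz. The median over the 6548 genes with this form was 717 bp, with quartiles of 484 and 1044 bp, so that 5 of the 8 genes lay above the upper quartile. At all 8 genes the upstream edge was nearer to the TSS than the downstream edge, which held for 69.0% of the 6548. The upstream edge lay 46 to 99 bp from the TSS at Tnfaip3, Nfkb1, Relb, Nfkbia and Nfkbiz, 180 bp at Rela, 374 bp at Nfkb2 and 471 bp at Rel. At Nfkb2 and Rel, the genes with the farthest upstream edges, a Runx3-bound region extended into the uncovered stretch.

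**Figure D3:**
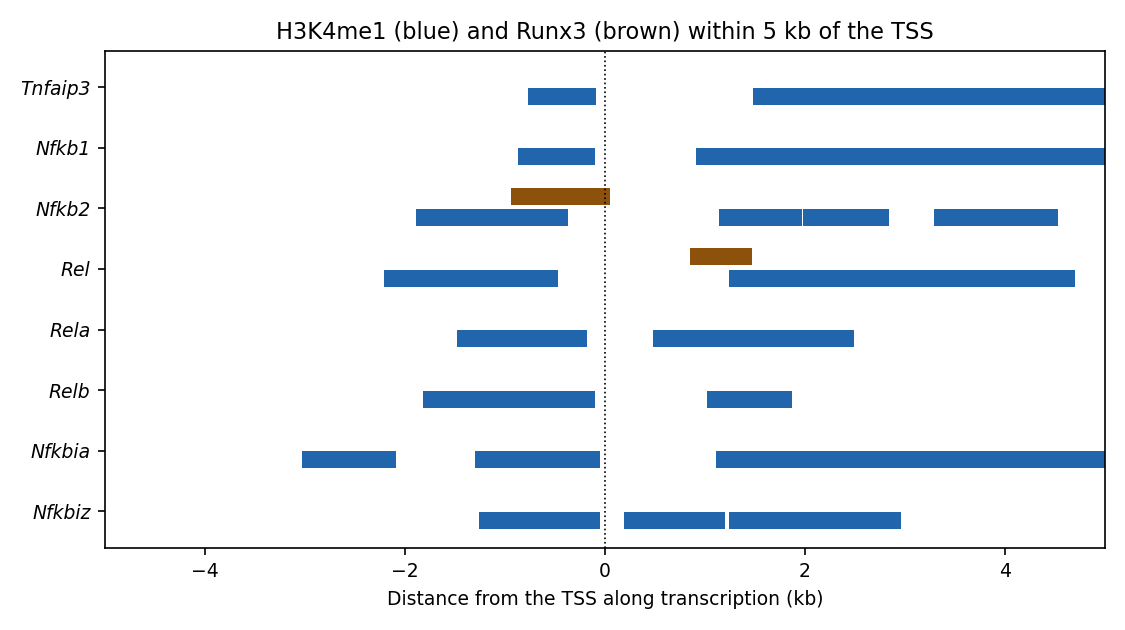
H3K4me1-marked (blue) and Runx3-bound (brown) regions within 5 kb of the TSS of the 8 genes (x axis, kb from the TSS along transcription; 1 row per gene). The TSS, drawn as a dotted line, lies in an uncovered stretch of 242 to 1709 bp at every gene, and Runx3 is present in that stretch at Nfkb2 and Rel.

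Across the 11 Runx3-bound regions, 10 shared at least 1 bp with H3K4me1 (90.9%, interval 62.3 to 98.4%), and the share in the whole list was 78.8%. The midpoint lay inside a marked region in 8 of 11 (72.7%, interval 43.4 to 90.3%), against 66.1% of the list. The other 3 were Tnfaip3 region 5 and the Rel and Nfkbiz regions. Both list-wide shares lay within the intervals. From the other side, 10 of the 123 marked regions carried Runx3 (8.13%, interval 4.48 to 14.3%), against 5.49% of all marked regions. The 11 midpoints fell in introns in 5 cases and outside annotated genes in 6, with list-wide shares of 44.6% and 47.5%. Of the 11, 8 lay more than 20 kb from any protein-coding TSS, as did 53.2% of the list, and 5 of those 8 were Tnfaip3 regions, 4 of them taken only through its 200-kb window.

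Motifs were searched on both strands by their letters: RUNX as TGTGGT or TGTGGC or TGCGGT or TGCGGC, ETS as AGGAAA or AGGAAG or CGGAAA or CGGAAG, AP-1 as TGACTCA or TGAGTCA, and the 10-letter κB motif. ETS factors often bind beside RUNX factors. Matches to different motifs were counted separately even where they overlapped. In the central 200 bp 8 of 11 regions held a RUNX motif (72.7%, interval 43.4 to 90.3%; list 66.0%) and 8 an ETS motif (list 63.8%). Over the whole region 10 held RUNX (list 88.8%) and all 11 held ETS (list 95.0%). A RUNX and an ETS motif whose first bases lay at most 50 bp apart in the central window were found in 5 of 11 (list 32.7%). Tnfaip3 region 2, where 50 bases separate the motifs, fell just outside by this measure. At least 2 RUNX motifs were found in the central window of 2 of 11 (list 28.9%), namely Nfkb1 region 2 and the Nfkb2 region.

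The κB motif was present in none of the 11 central windows, where 3.57% of the list held one. Over the whole region it was present in 3 of 11 (27.3%, interval 9.75 to 56.6%), against 14.5% of the list. Each of the 3 regions belonged to a different gene, and all 3 were wider than the list median. A match is a run of letters and not a measured site.

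**Figure D4:**
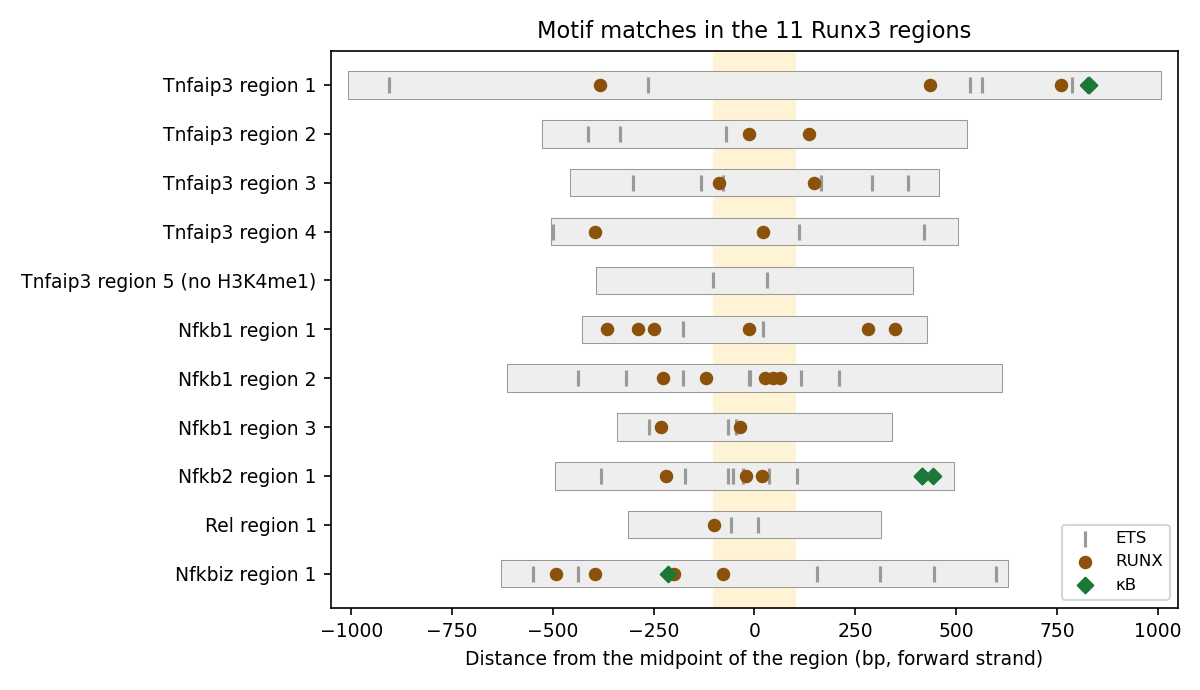
RUNX (brown circles), ETS (grey ticks) and κB (green diamonds) matches in the 11 Runx3-bound regions, drawn to scale from the midpoint (x axis, bp on the forward strand), with the central 200 bp shaded. RUNX matches lie in the shaded window in 8 regions, and the κB matches of Tnfaip3 region 1, the Nfkb2 region and the Nfkbiz region all lie outside it.

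RefSeq promoter sequences (GRCm38.p6, 300 bases that lie mostly before a start) were matched by symbol for 5 of the 8 genes, Tnfaip3, Nfkb2, Rel, Rela and Nfkbia, and not for Nfkb1, Relb and Nfkbiz. A κB match was present in a promoter of 4 of the 5, the exception being Rela, and 9.55% of 27025 genes had one. Of these 4 genes, only Nfkb2 had a Runx3-bound region over its TSS. A RUNX match was present at Nfkb2, Rel and Rela, and 48.7% of genes had one. ETS matches were present in 3 of the 5 (67.8% of genes).

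H3K4me1 cover was compared over 1 window for all genes, the gene body with 20 kb on either side. It was 38.2% at Nfkb1, 29.7% at Rel, 23.8% at Nfkb2, 22.6% at Tnfaip3, 21.0% at Rela, 20.7% at Nfkbia, 17.7% at Nfkbiz and 12.7% at Relb. The median over all protein-coding genes was 5.75% and the 90th percentile 25.1%. All 8 lay above that median, Nfkb1 and Rel above the 90th percentile, and the median of the 8 was 21.8%. The order of the genes has no replicate error, so that neighbours in it cannot be told apart by a test. It also changed with the margin. With 5 kb the median of the 8 was 33.5% and Nfkbia was highest, at 53.7%, ahead of Nfkb1 at 43.3%. With 50 kb Nfkb1 was highest, at 28.6%, and Nfkbiz lowest, at 14.0%, while Relb was at 21.2%. With 200 kb Rela was highest, at 23.3%. At 20 kb the 3 genes without Runx3 overlapped in cover with the 5 that had it, since Rela and Nfkbia were above Nfkbiz. At 20 kb all windows but those of Tnfaip3 and Nfkbia took in parts of other protein-coding genes, and cover over those neighbours is included.

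The Runx3-bound regions were 627 to 2014 bp wide with a median of 990 bp, and the median of the list was 851 bp. Width entered the choice of the Tnfaip3 window, which brought in regions 1 to 4, so nothing is read from this difference. With 20 kb for every gene the median of the 7 regions left was 856 bp. The marked regions were 354 to 6081 bp wide with a median of 1153 bp (order-statistic interval 1047 to 1361 bp), beside a list median of 979 bp, and 75 of 123 were at or above it. The 10 marked regions that carried Runx3 were 1313 to 5606 bp wide, all above the median of the list. Widths of the 4213 marked regions in the whole list that overlap Runx3 were not computed, so nothing is read from this. A wide region has more room to overlap another, and the part this plays here was not tested.

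**Figure D5:**
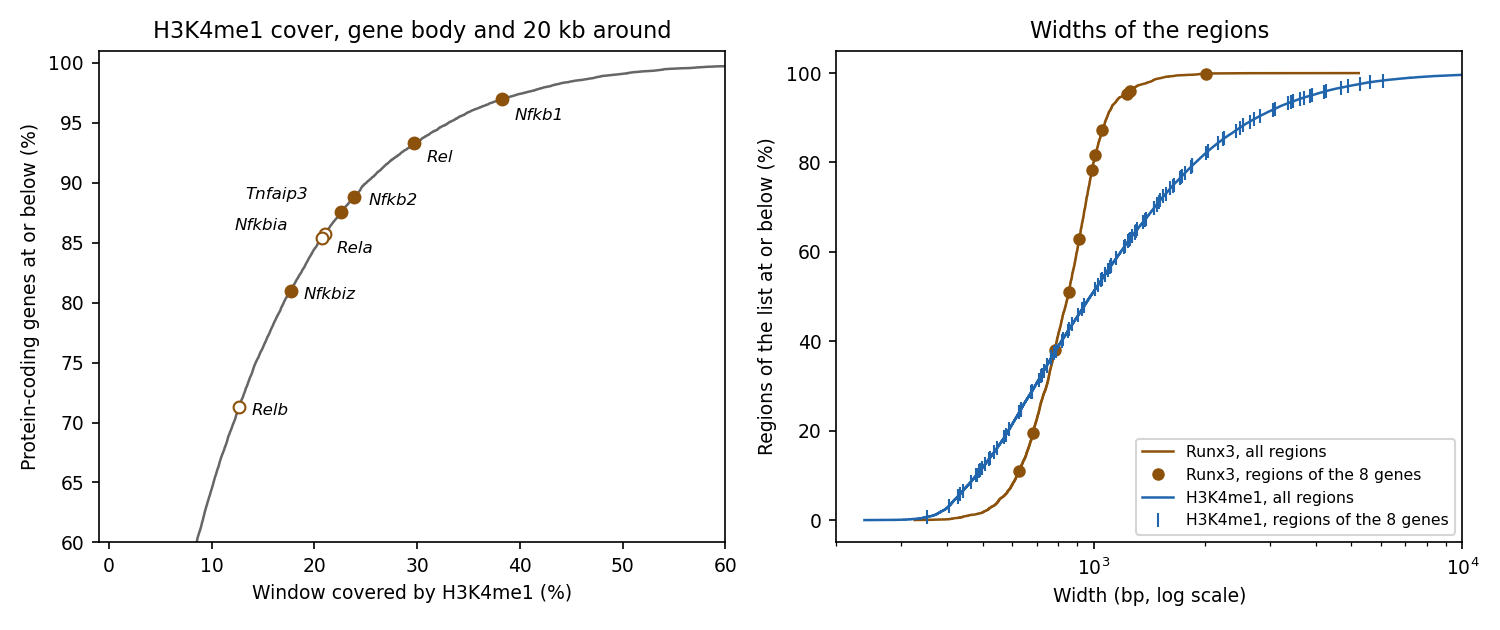
Left, share of protein-coding genes (y axis, %) at or below a given H3K4me1 cover of gene body and 20 kb around (x axis, %), with the 8 genes as circles, filled where Runx3 was bound within 20 kb; they run from percentile 71.3 (Relb) to 96.9 (Nfkb1). Right, share of each list (y axis, %) at or below a given width (x axis, bp, log scale), with the 11 Runx3-bound regions as points, the widest at 2014 bp, and the 123 H3K4me1-marked regions as ticks.

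At the limits of the windows, the outermost Runx3-bound region taken for Tnfaip3 lay 170 kb from the gene and the first one left out lay 225 kb away, nearest to Olig3. For Nfkb1 these distances were 19.1 and 144 kb, so that region 3 was taken by a margin of less than 1 kb. For Nfkb2 they were 0.449 and 248 kb. For Rel and Nfkbiz the region taken lay in the gene, and the first left out was 124 and 56.8 kb away.

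Of 38 other genes of the pathway, 16 had a Runx3-bound region within 20 kb (42.1%), against 19.8% of all protein-coding genes, and all 38 had H3K4me1, against 73.6% of all genes. Those 16 genes had 29 distinct Runx3-bound regions, or 30 counted gene by gene, and all overlapped H3K4me1, as did 78.8% of the Runx3 list. Among kinases and adaptors that carry the signal it was 11 of 23, and among inhibitors and partners of A20 it was 5 of 15. The list was drawn up with results of these data known and no test was made on it.

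The highest count was that of Prkcq, the kinase that couples the T cell receptor to NF-κB, with 5 regions, the nearest 9671 bp downstream of its TSS. At least 5 within 20 kb was found at 0.206% of protein-coding genes, counted over genes of all lengths. Prkcq is a long gene (chr2:11093740-11222853), and its count was not scaled by length. The genes of the signalling partners Bcl10 and Malt1 had 3 each. The region nearest the Bcl10 TSS lay 226 bp before it, and that of Malt1 14518 bp before it. Traf1, an adaptor of TNF-family receptors, had 3 regions and the highest H3K4me1 cover of the list at 58.0%. The neighbouring ubiquitin ligase genes Birc3 and Birc2 had 2 and 1, and the single Birc2 region (chr9:7836698-7837594) was also 1 of those of Birc3.

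Among the inhibitors, Cyld and Fam105b, which encode enzymes that remove ubiquitin chains, had 2 regions each, at 4208 and 2700 bp downstream of the TSS for the nearest. Bcl3, an atypical IκB like Nfkbiz, had 1, at 5011 bp. In 3 other families of signal-responsive factors, Runx3 was bound within 20 kb at 5 of 7 Stat genes (10 distinct regions), 3 of 9 Irf genes (4 regions) and 2 of 10 genes of the AP-1 family (2 regions), beside 5 of 8 NF-κB genes (7 regions). The share over all protein-coding genes, 19.8%, is close to that of the AP-1 family, 20%. Differences between these counts were not tested.

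The label of the cells was checked by H3K4me1 within 5 kb of marker genes. All 10 T cell markers, Cd8a and Cd8b1 among them, had a marked region, with a median cover of 45.0% (29.5 to 94.0%). So did 7 of 7 B cell markers (median 26.1%, range 12.3 to 83.5%), 6 of 7 myeloid and dendritic cell markers (14.1%, 0 to 27.1%, with Lyz2 at 0), 2 of 3 NK markers (15.8%, 0 to 21.2%, with Ncr1 at 0) and 2 of 2 erythroid markers (12.3%, 3.49 to 21.0%). Over all protein-coding genes 67.1% had a marked region at this distance, so that its presence alone says little, and the median cover was 6.01%. The mark can be present at genes that are not expressed, the lists hold no level, and the part of other cell types in the regions described here was not tested.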

How the data were processed

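The authors sequenced ChIP DNA of the 7 libraries (fragments of about 300 bp, reads of 40 to 42 bp), aligned reads to mm9 with ELAND (CASAVA 1.6 and 1.7 are named in the submitters' processing notes) and called regions with MACS on joined repeats against joined NIS. The deposited values used here are start and end positions in bp, with no signal, count or p-value, so depth per region is unknown. Starts were moved by 1 bp to browser coordinates. Regions were assigned by midpoint with the GENCODE annotation of NCBIM37, overlap meant at least 1 bp, and the motif search and overlap code was tested on simulated data. Python 3.11.15, numpy 2.4.6, scipy 1.17.1, pysam 0.24.0 and matplotlib 3.10.9 were used. Genes, members and gene lists were chosen with earlier results of these data known. Named regions were all 11 Runx3-bound ones, and named pathway genes were the 10 with most Runx3-bound regions, ties by symbol, of which 1 is not reported here, nor is 1 sequence. Alternatives changed the window, assignment, overlap, merging and motif window. No samples were compared by a test, because each antibody has 1 list.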

Additional observations from a re-analysis of the deposited data

How the results depend on the processing

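The number of Runx3-bound regions, 11, was 5, 7 and 29 with windows of 5, 20 and 200 kb for every gene, and the number of H3K4me1-marked regions, 123, was 61, 228 and 369 with 5, 100 and 200 kb and 81 with neighbours within 1000 bp merged, which also moved their median width from 1153 to 1567 bp. The share with a RUNX motif, 72.7%, was 90.9% over the whole region and 54.5% in the 100 bp around the midpoint. The share of protein-coding genes with Runx3, 19.8% at 20 kb, was 13.0% at 5 kb, 30.8% at 50 kb, 44.1% at 100 kb and 60.5% at 200 kb. The overlap with H3K4me1 ran from 72.7 to 93.1% over its alternatives. Of 40 alternative values for 8 results, 27 stayed within the interval of the reported share or median or within 1.5 times the reported count, a wide tolerance that takes in 87 for 123 and 14 for 11, and 13 moved further. Of 128 alternative values for the counts of single genes, 49 moved by more than 1.5 times. With regions assigned to the nearest protein-coding TSS, Nfkbiz had 3 Runx3-bound regions in place of 1 and 28 marked regions in place of 10. No paired analysis was possible because each antibody has 1 list called on joined repeats, which also kept single repeats from being left out in turn. The lists hold no depth, so weaker binding at Rela, Relb or Nfkbia would not be seen.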
